A study of Homo sapiens with 18 samples.

Results

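The insulin-like growth factor (IGF) binding proteins, the receptors IGF1R and IGF2R and the ligand IGF2 were followed in U87MG, a long-established cell line from a human glioblastoma. The genes were chosen by name, as the rows of the count table whose Ensembl identifiers carry the symbols IGFBP1 to IGFBP7, IGF1R, IGF2 and IGF2R. They were 10 of the 58302 genes in the table. Total RNA was sequenced from 2 libraries of control U87 cells and 2 libraries of U87 cells given Erastin at 10 μM for 72 h, described as biological replicates. Erastin is a small molecule that blocks cystine import through system Xc-, and the comparison asks which transcripts differ in cells in which it has been used to induce ferroptosis. All cells grew in DMEM with fetal bovine serum, penicillin and streptomycin, the labels give no vehicle for the control cells, and all libraries are of a single cell line.

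IGF1 and IGF2 are secreted growth factors that activate the tyrosine kinase IGF1R, whereas IGF2R binds IGF2 and carries it to lysosomes without a kinase of its own. IGFBP1 to IGFBP6 hold IGFs in the extracellular fluid with high affinity and are cut by proteases that free the ligand, and IGFBP7 binds IGFs only weakly. IGFBP2 is often abundant in glioblastoma tissue.

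Libraries held between 29412656 and 31513519 counts, and 16751 genes passed the filter on low counts. Levels are given as CPM, in which library totals and TMM factors put the libraries on one scale. The groups were compared by edgeR's quasi-likelihood test, with p-values adjusted over all tested genes, and a gene was called when its log2 fold change was at least 1 in size and its adjusted p under 0.05. The smallest two-sided p that exact permutation of 2 and 2 libraries allows is 0.333, so these p-values rest on a spread estimated across genes. Of 9 glial and glioma-line markers, AQP4 had no count, S100B had at most 2 counts and SOX2 at most 6 counts in a library, whereas VIM had at least 48117 counts and CD44 at least 31559 counts in every library. SLC1A3 and NES, both in this list, fell by 2.45 and 3.62 on the log2 scale. VIM and CD44 were lower too (log2 fold changes -0.60 and -0.36). GFAP had 46 and 41 counts in control libraries against 69 and 81 counts with Erastin (log2 fold change 0.79, adjusted p = 0.0696). OLIG2 had 59 to 88 counts a library (log2 fold change -0.40, adjusted p = 0.305). Of the 6 tested markers of this list, 4 were lower and 0 higher at an adjusted p under 0.05. The shares of all tested genes were 23.7% and 23.2%. Immune markers summed to between 1.02 and 1.31 TPM, the level per exon length, and epithelial and hepatocyte markers to between 0.328 and 0.923 TPM. PTPRC had 0 or 1 count per library, and CD3E, CDH1, KRT5 and APOA1 had none. Endothelial markers summed to 2.01 and 2.80 TPM in control libraries and to 0.772 and 0.911 TPM in Erastin libraries, with CLDN5 at 0. In that list PECAM1 was called lower (log2 fold change -2.34). VWF, with 4 counts in each control library against 17 and 32 counts, was called higher (log2 fold change 2.58). That call rests on few reads, with a wide SE of 0.733 and an adjusted p of 0.0125. Neuron markers summed to 49.2 and 56.2 TPM against 16.4 and 16.2 TPM, and SNAP25 was the one called (log2 fold change -3.31). The markers with a fold change here were picked out after their values were seen. The part of these shifts in the results was not tested.

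Of the 10 genes, 9 had a count in some library and 7 passed the filter. IGFBP3 rose, and it was the only one called higher, where 6.24% of all tested genes were. IGFBP1 and IGFBP4 fell and were called lower, where 9.34% of all tested genes were. IGF2R rose and IGFBP6 fell with an adjusted p under 0.05 but below the fold threshold. Counting every gene with such an adjusted p gave 2 of the 7 tested genes higher and 3 lower, where the shares of all tested genes were 23.2% and 23.7%. In 6 of the 7 tested genes every library of one group lay above every library of the other, and this held for 73.6% of all tested genes. The median log2 fold change was -0.18 over the 7 genes and -0.0026 over all tested genes, and the median size was 0.35 against 0.43. The 7 genes are those with enough reads, not the whole set.

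**Figure D1:**
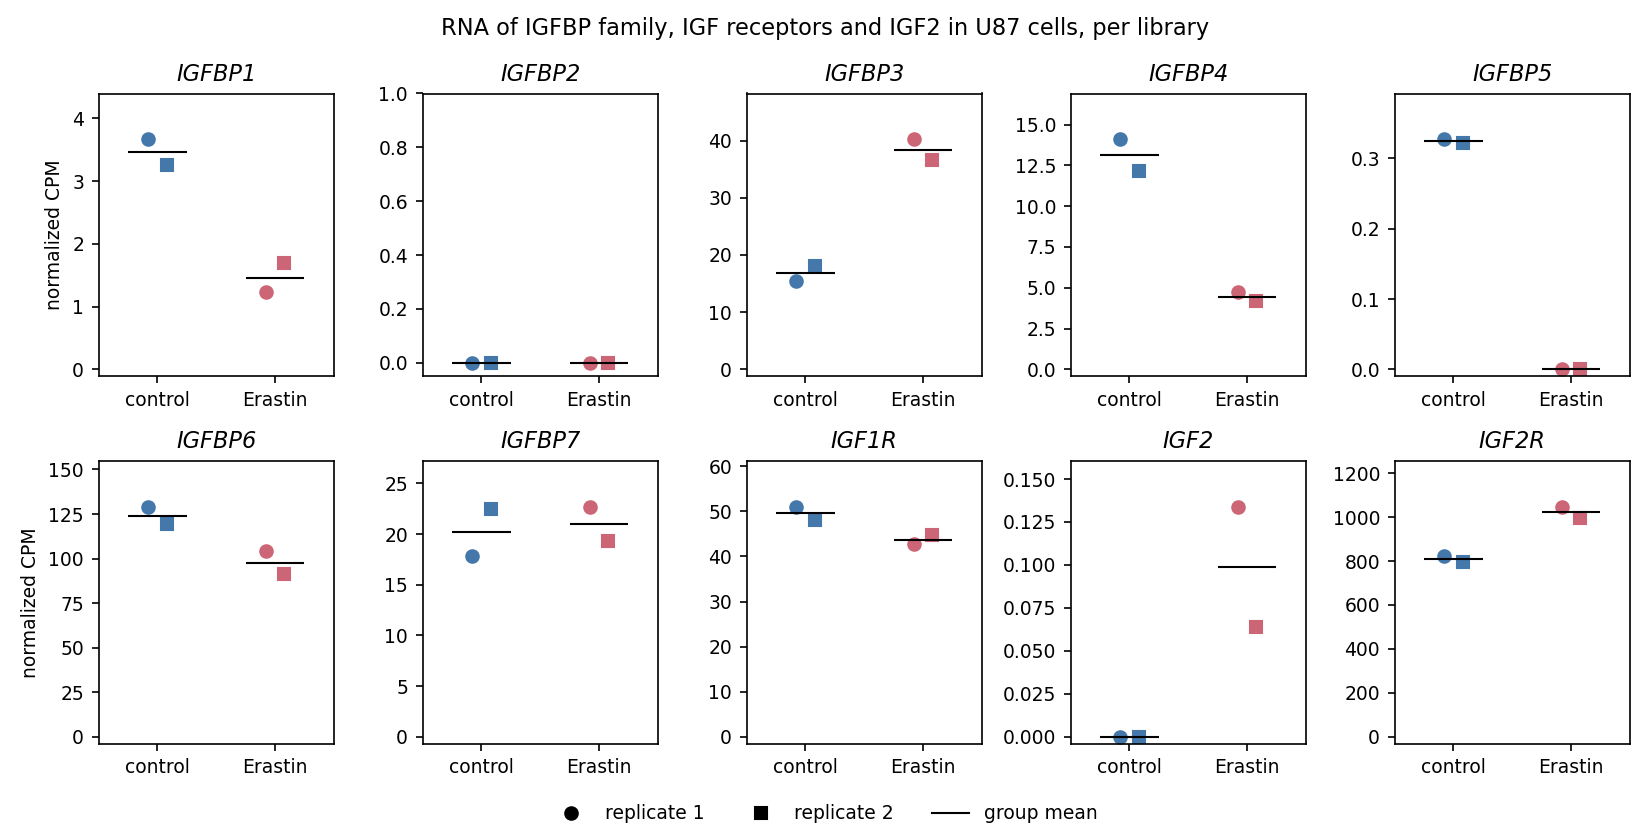
Normalized CPM (y axis, linear, a separate scale for each gene) of the 10 genes in the control and Erastin libraries (x axis). Circles are replicate 1, squares replicate 2 and horizontal lines group means. The Erastin libraries lie above the control libraries for IGFBP3 and IGF2R and below them for IGFBP1, IGFBP4, IGFBP6 and IGF1R, the groups overlap for IGFBP7, and IGFBP2, IGFBP5 and IGF2 have few reads or none.

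The promoters of the genes with the strongest rise and fall among those called, IGFBP3 and IGFBP4, are shown because transcript levels of these genes moved in opposite directions. They are the 250 bases before the RefSeq start, in the direction of the gene, from RefSeq on GRCh38.p14. IGFBP3 is on the minus strand at chr7:45921273-45921522 and IGFBP4 on the plus strand at chr17:40443200-40443449. The RefSeq start of IGFBP3 lies 602 bases downstream of the outermost start in the count table, so its window lies within the counted span, with 2 of its bases in counted exons. That of IGFBP4 lies 11 bases upstream of the counted gene. Capitals mark a TATA motif (TATAAA or TATATA) or a GC box (GGGCGG), searched on both strands, so that a GC box on the other strand reads CCGCCC.
IGFBP3: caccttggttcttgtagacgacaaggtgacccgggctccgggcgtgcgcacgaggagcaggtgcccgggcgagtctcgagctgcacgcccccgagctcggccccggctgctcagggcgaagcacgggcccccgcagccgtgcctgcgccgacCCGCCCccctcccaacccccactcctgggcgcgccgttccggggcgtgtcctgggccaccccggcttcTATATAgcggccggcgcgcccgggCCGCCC
IGFBP4: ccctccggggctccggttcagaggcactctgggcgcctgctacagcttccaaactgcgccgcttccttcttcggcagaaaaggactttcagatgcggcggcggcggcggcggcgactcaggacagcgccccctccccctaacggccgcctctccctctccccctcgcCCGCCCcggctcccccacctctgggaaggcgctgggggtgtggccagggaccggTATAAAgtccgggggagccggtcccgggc
Both windows hold a TATA motif, beginning 30 bases before the start of IGFBP3 and 29 bases before that of IGFBP4. IGFBP3 has GC boxes beginning 98 and 6 bases before its start, and IGFBP4 has one 83 bases before. Neither window holds CCAAT on either strand. Among 35116 promoter windows of the same length, 12.8% hold the TATA motif, 42.6% the GC box and 32.0% CCAAT. The GC content is 76% for IGFBP3 and 71.6% for IGFBP4, where the median window has 58%. The search describes letters only, and binding was not measured here. The table had an entry for 7 of the 10 genes.

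IGFBP3 (ENSG00000146674, chromosome 7, 45912245 to 45921874, minus strand, GRCh38) encodes the main carrier of IGFs in serum. The control libraries gave it 475 and 561 counts, against 1203 and 1151 counts with Erastin. Each Erastin library was higher than either control library. Its level was 16.8 ± 1.79 CPM in control cells and 38.4 ± 2.54 CPM with Erastin (SD, n = 2 each), a 2.29-fold rise (log2 fold change 1.19, SE 0.117, adjusted p = 5.81e-06). Leaving out each library in turn gave log2 fold changes between 1.09 and 1.30. In bulk RNA a change in RNA per cell and a change in the number of cells that express a gene cannot be told apart.

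IGFBP4 (ENSG00000141753, chromosome 17, 40443461 to 40457731, plus strand) encodes a binding protein known as an inhibitor of IGF action and as the main substrate of the protease PAPPA. Counts were 431 and 377 without Erastin and 142 and 131 with it, and the groups did not overlap. The level fell from 13.1 ± 1.39 CPM to 4.46 ± 0.409 CPM (SD, n = 2 each), 2.94-fold lower (log2 fold change -1.56, SE 0.177, adjusted p = 2.01e-05). This was the largest fall among the 7 tested genes.

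IGFBP1 (ENSG00000146678, chromosome 7, 45888357 to 45893668, plus strand) is best known as a liver transcript repressed by insulin. It had 112 and 101 counts in control libraries, and 37 and 53 counts with Erastin. The Erastin libraries were again both below the control libraries, at fewer reads than for the other called genes. The level was 3.46 ± 0.291 CPM in control cells and 1.46 ± 0.318 CPM with Erastin (SD, n = 2 each; log2 fold change -1.24, SE 0.310, adjusted p = 0.00613). Without any one library the log2 fold change lay between -1.48 and -1.03. IGFBP1 and IGFBP3 are neighbours on chromosome 7, on opposite strands with their 3' ends 18.6 kb apart, and they were called in opposite directions. None of the exon bases of IGFBP1, IGFBP3 or IGFBP4 lie in an exon of another gene of the table.

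IGFBP6 (ENSG00000167779, chromosome 12, 53097436 to 53102345, plus strand) encodes the binding protein with the strongest preference for IGF2 over IGF1. Control libraries had 3943 and 3706 counts and Erastin libraries 3121 and 2862 counts. The groups did not overlap, and the level fell from 124 ± 6.83 CPM to 97.7 ± 9.37 CPM (SD, n = 2 each). The log2 fold change was -0.35 (SE 0.0815, adjusted p = 0.00432), below the fold threshold. Without replicate 2 of the Erastin group the adjusted p was 0.0785.

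IGFBP7 (ENSG00000163453, chromosome 4, 57030773 to 57110385, minus strand) did not pass the test. It had 546 and 698 counts in control libraries against 678 and 607 counts in Erastin libraries, and the groups overlapped. The levels were 20.2 ± 3.26 CPM and 21.0 ± 2.37 CPM (SD, n = 2 each), with a log2 fold change of 0.06 (SE 0.140, adjusted p = 0.770). Its sign turned to -0.10 without replicate 1 of the control group and to -0.06 without replicate 1 of the Erastin group. Exons of POLR2B and IGFBP7-AS1 on the other strand cover 18.9% of its exon bases, and the counting did not use strand.

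IGFBP5 (ENSG00000115461, chromosome 2, 216672105 to 216695525, minus strand) was near the limit of the depth. It had 10 counts in each control library and 0 in each Erastin library, too few for the filter. Its control mean was 3.31 times a floor of 3 counts in each Erastin library. This takes the control mean as exact and each count as independent, so it is not a lower bound. Without the filter edgeR called IGFBP5 lower with an adjusted p of 0.0130, and DESeq2 did so with an adjusted p of 0.0262. An unnamed gene on the other strand, ENSG00000236886, shares 298 of its exon bases and had no count.

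IGFBP2 (ENSG00000115457, chromosome 2, 216632828 to 216664436, plus strand) had 0 counts in all 4 libraries. A count of 0 allows up to 0.0955 to 0.100 CPM per library, for counting error only and with each count taken as independent. Since both reads of a pair could be counted, the limit may be higher. IGFBP2 and IGFBP5 lie 7.67 kb apart on opposite strands. Neither was detected in the Erastin libraries at this depth.

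The ligand IGF2 (ENSG00000167244, chromosome 11, 2129112 to 2141238, minus strand) had 0 counts in each control library, and with Erastin it had 4 and 2 counts. These counts are too few for a comparison. Other genes cover 41.6% of its exon bases, among them the read-through gene INS-IGF2 on the same strand and IGF2-AS on the other, and reads that fell on several genes had not been counted. INS-IGF2 and ENSG00000240801 had no count, and IGF2-AS had 4 counts in replicate 2 of the Erastin group and 0 elsewhere.

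IGF2R (ENSG00000197081, chromosome 6, 159969099 to 160113507, plus strand) had the most reads of the 10 genes. Its counts were 25110 and 24756 in control libraries and 31289 and 31321 in Erastin libraries. Both Erastin libraries were higher, at 1021 ± 34.8 CPM against 809 ± 17.2 CPM (SD, n = 2 each). The log2 fold change was 0.34 (SE 0.0628, adjusted p = 9.15e-04), and it lay between 0.30 and 0.37 without each library in turn.

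IGF1R (ENSG00000140443, chromosome 15, 98648971 to 98964530, plus strand) did not pass the test, although its groups did not overlap. It had 1559 and 1497 counts in control libraries against 1278 and 1404 counts in Erastin libraries. The levels were 49.6 ± 1.98 CPM and 43.7 ± 1.38 CPM (SD, n = 2 each), with a log2 fold change of -0.18 (SE 0.0858, adjusted p = 0.104).

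Levels of different genes were compared within a group as TPM, which divide by exon length. In control cells IGFBP6 led with 335 ± 8.38 TPM, followed by IGF2R with 187 ± 1.64 TPM, IGFBP7 with 36.2 ± 6.92 TPM and IGFBP4 with 20.6 ± 1.56 TPM (SD, n = 2 each). IGFBP3 at 12.7 ± 1.73 TPM and IGF1R at 12.7 ± 0.125 TPM did not differ beyond their spread, and IGFBP1 at 7.22 ± 0.392 TPM came next. IGFBP5 was at 0.174 TPM, and IGFBP2 and IGF2 were at 0. In Erastin-treated cells IGFBP6 at 301 ± 33.1 TPM and IGF2R at 270 ± 13.0 TPM overlapped. IGFBP7 followed at 42.9 ± 5.43 TPM, IGFBP3 at 33.2 ± 2.65 TPM, IGF1R at 12.8 ± 0.226 TPM, IGFBP4 at 7.99 ± 0.844 TPM and IGFBP1 at 3.48 ± 0.710 TPM. IGFBP3 thus stood below IGFBP4 in control cells and above it in Erastin-treated cells, in each library.

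The summed TPM of IGFBP1 to IGFBP7 was 413 and 411 without Erastin and 418 and 360 with it, and the groups overlapped. This depends on the scale, since the summed CPM was 180 and 176 against 173 and 153, without overlap. IGF1R likewise stood at 12.7 and 12.8 TPM but at 49.6 and 43.7 CPM, and the tests used the scale of the CPM. Within this sum IGFBP6 made up 81.3 ± 1.70% in control cells and 77.5 ± 0.279% in Erastin-treated cells (SD, n = 2 each). The share of IGFBP3 was 3.09 ± 0.433% and 8.54 ± 0.225%, and that of IGFBP4 was 4.99 ± 0.358% and 2.06 ± 0.00132%. The shares of these 3 genes did not overlap between the groups. This was not particular to them, since the shares of IGFBP1, IGFBP5 and IGFBP7 did not overlap either. That of IGFBP7, whose level did not differ, was 7.57% and 10.0% in control libraries against 11.2% and 10.9% in Erastin libraries. The shares were not tested. The ratio of IGF2R to IGF1R TPM was 14.6 and 15.0 in control libraries and 22.2 and 20.2 in Erastin libraries.

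**Figure D2:**
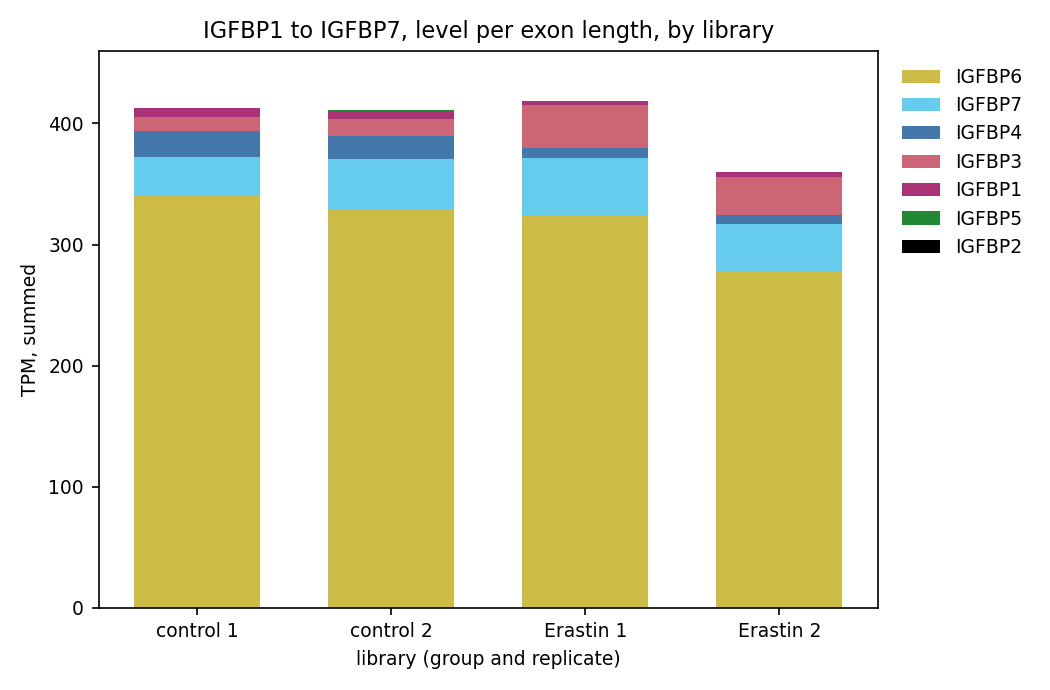
Stacked bars of the TPM of IGFBP1 to IGFBP7 (y axis, from 0) in each of the 4 libraries (x axis). IGFBP6 is the largest segment in every bar, the IGFBP3 segment is wider in the Erastin libraries, and the sums run from 360 to 418 TPM.

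Genes that act on or with the binding proteins were taken from lists. Of 17 IGFBP proteases and inhibitors of these proteases, 13 were tested, with 3 called higher and 2 called lower. Over all tested genes 6.24% were called higher and 9.34% lower. PAPPA2, a protease that cuts IGFBP3 and IGFBP5, had 314 and 308 counts in control libraries against 1808 and 1964 counts in Erastin libraries. Its rise was the largest of the list (log2 fold change 2.61, SE 0.102, adjusted p = 3.05e-09). STC2, a secreted inhibitor of PAPPA and PAPPA2, went from 2244 and 2058 counts to 6233 and 6967 counts (log2 fold change 1.62, SE 0.0763, adjusted p = 1.30e-08). C1S, a complement protease that can cut IGFBP5, rose by 1.15 on the log2 scale (SE 0.0733, adjusted p = 1.63e-07).

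The serine protease HTRA1 had 38819 and 43484 counts in control libraries against 15764 and 15796 counts in Erastin libraries, the strongest fall of that list (log2 fold change -1.37, SE 0.0699, adjusted p = 2.55e-08). ADAM12, a metalloprotease reported to cut IGFBP3 and IGFBP5, fell by 1.12 on the log2 scale (SE 0.0648, adjusted p = 7.38e-08). PAPPA, the protease of IGFBP4, was picked out after its values were seen. It had 9211 and 9119 counts against 6121 and 6636 counts, a log2 fold change of -0.52 (SE 0.0640, adjusted p = 4.08e-05) below the fold threshold. The list thus held members that rose and members that fell, and its median log2 fold change was 0.14.

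**Figure D3:**
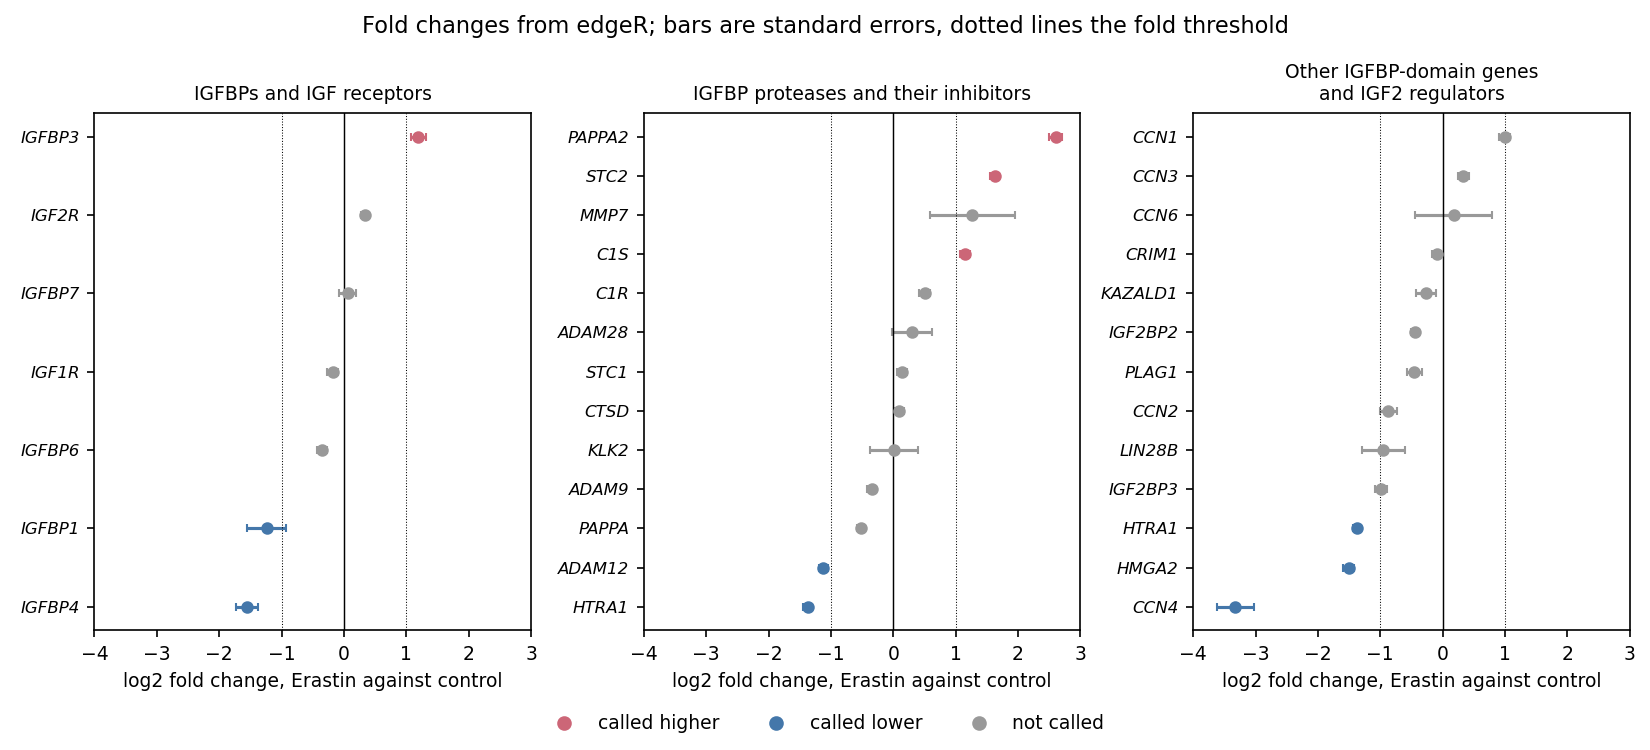
Log2 fold changes of Erastin-treated against control cells (x axis) for the tested genes among the 10 (left), for IGFBP proteases and their inhibitors (middle), and for other genes with an IGFBP domain with regulators of IGF2 (right). Points are edgeR estimates from 2 against 2 libraries, bars are standard errors and dotted lines mark the fold threshold of 1; IGFBP3 and PAPPA2 stand to the right, IGFBP4 and CCN4 to the left.

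Of 13 other genes whose proteins carry an IGFBP domain, 8 were tested, none was called higher and 2 were called lower. At an adjusted p under 0.05 alone 2 were higher and 3 lower, where 23.2% and 23.7% of all tested genes were. The shares of all tested genes called were 6.24% higher and 9.34% lower. CCN1, picked out after its values were seen, had 1145 and 1329 counts in control libraries against 2462 and 2451 counts in Erastin libraries. Its log2 fold change of 0.998 (SE 0.0876, adjusted p = 2.40e-06) lay just below the fold threshold. HTRA1 was 1 of the 2 called genes. CCN4, a matricellular protein induced by Wnt signalling, had 315 and 219 counts without Erastin and 22 and 31 counts with it (log2 fold change -3.32, SE 0.292, adjusted p = 2.41e-06).

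Of 7 further ligands, receptors and carrier partners, 3 were tested and none was called. Only LRP1, a receptor that also binds IGFBP3, had an adjusted p under 0.05, with 63746 and 61544 counts against 70139 and 70083 counts (log2 fold change 0.17, SE 0.0635, adjusted p = 0.0449). Its adjusted p was 0.115 without replicate 2 of the control group, and 0.297 and 0.0789 without replicates 1 and 2 of the Erastin group. IGF1 and INS had no count in any library, but exons of HELLPAR cover 82.8% of the exon bases of IGF1. No read was therefore counted for an IGF ligand in control cells. Since reads that fell on several genes were left out, this does not show that IGF1 and IGF2 transcripts were absent.

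Of 37 genes of signalling downstream of IGF1R, 34 were tested, none was called higher and 2 were called lower, with a median log2 fold change of 0.04. At an adjusted p under 0.05 alone 8 were higher and 6 lower, where 23.2% and 23.7% of all tested genes were. Of all tested genes 6.24% were called higher and 9.34% lower. GRB14, an adaptor that inhibits insulin receptor signalling, had 307 and 380 counts in control libraries against 26 and 49 counts in Erastin libraries (log2 fold change -3.19, SE 0.273, adjusted p = 1.95e-06). The count called lower was 1 with DESeq2 and also without replicate 2 of the control group.

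Of 7 regulators of IGF2 expression and IGF2 mRNA, 5 were tested, with a median log2 fold change of -0.95. All 5 fell at an adjusted p under 0.05, where 23.7% of all tested genes did. HMGA2, a chromatin protein that promotes IGF2 transcription, was the one called, with 20741 and 22934 counts in control libraries against 6820 and 8509 counts in Erastin libraries (log2 fold change -1.51, SE 0.0856, adjusted p = 6.35e-08). The others were IGF2BP2, IGF2BP3, PLAG1 and LIN28B. PLAG1 lost that threshold without replicate 1 of the Erastin group (adjusted p = 0.104). LIN28B, at 42 to 130 counts a library, lost it without replicate 2 of the control group (adjusted p = 0.130) and without replicate 2 of the Erastin group (adjusted p = 0.202). The lists were written with earlier results of these data known, so their counts describe these genes and are set only against the shares of all tested genes given above.

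The genes whose profile over the 4 libraries was nearest to that of IGFBP3, among 9508 genes whose mean reached 10 CPM, were UNKL, RNF146 and PLXNB1, at Euclidean distances of 0.0716, 0.0743 and 0.0746 in centred log2 CPM. Nearest to IGFBP4 were DBN1, RNASEH2A and ADD2, at distances of 0.0530, 0.0599 and 0.0735. With 4 libraries in 2 groups such distances mostly compare the size of the group difference.

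Within 200 kb of IGFBP4, counted between the nearest ends of the genes, 9 other genes were tested, of which 2 were called lower and 1 higher. The shares of all tested genes were 9.34% and 6.24%. TOP2A, which encodes a DNA topoisomerase of dividing cells, begins 25.5 kb away on the opposite strand and fell by 3.31 on the log2 scale (SE 0.0751, adjusted p = 1.89e-10). CDC6, a DNA replication licensing gene, fell by 1.96 (SE 0.120, adjusted p = 1.13e-07), and GJD3-AS1 rose by 1.70 (SE 0.475, adjusted p = 0.0112). These genes were picked out after their values were seen. Within 200 kb of IGFBP3, 3 other genes were tested, and only IGFBP1 was called.

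**Figure D4:**
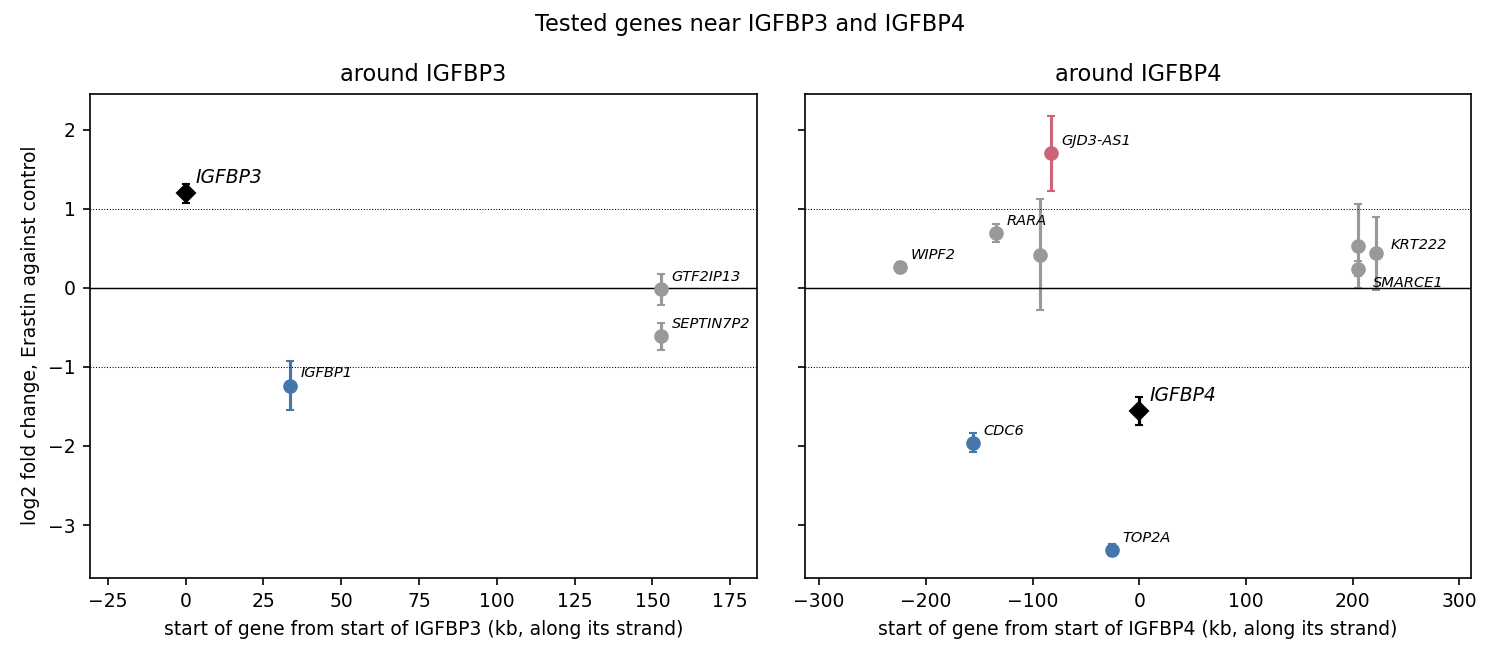
Log2 fold changes (y axis) of tested genes within 200 kb of IGFBP3 (left) and IGFBP4 (right) against the distance of their start from that gene's start (x axis, kb along its strand). Bars are standard errors and dotted lines the fold threshold of 1; black diamonds are IGFBP3 at 1.19 and IGFBP4 at -1.56, red marks genes called higher, blue called lower and grey not called.

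**Figure D5:**
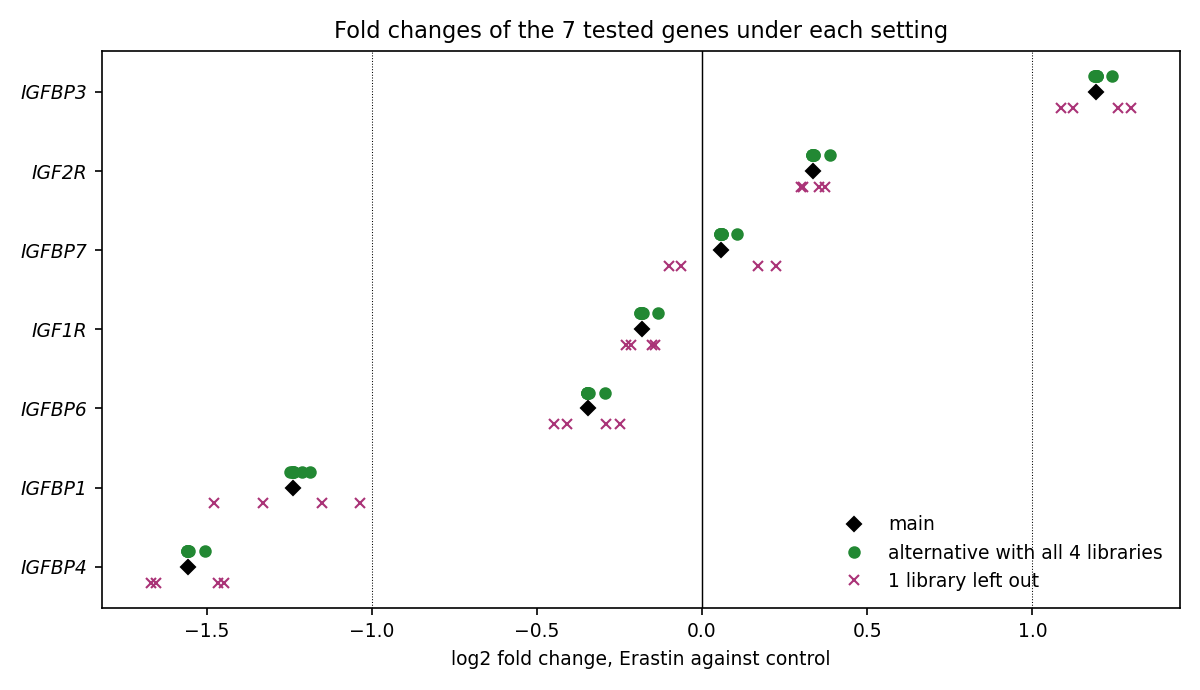
Log2 fold changes (x axis) of the 7 tested genes under the main analysis (diamonds), alternatives that keep all 4 libraries (circles) and with each library left out (crosses). Dotted lines mark the fold threshold of 1; IGFBP3, IGFBP4 and IGFBP1 stay beyond it in every setting shown, and IGFBP7 lies on both sides of 0.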

How the data were processed

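The 10 genes and the gene lists were chosen with earlier results of these data known. The authors deposited unnormalized read counts per gene for 4 RNA-seq libraries. In 1 library they were handled as estimated counts would be, and every value deposited was whole, so rounding changed none. The methods name Hisat2 and htseq-count, the submitters' processing notes HISAT2 2.1.0 and featureCounts 2.0.4, and the file header featureCounts 2.0.3 with Ensembl release 90 on GRCh38. By that command strand was ignored, both reads of a pair could add to a count, and reads on several genes or places were left out. Counting both reads overstates the independent fragments.

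Of 58302 genes, 57532 received a symbol by Ensembl identifier. In R 4.3.3, edgeR 4.0.16 (filterByExpr with a minimum count of 10, TMM factors 0.971 to 1.02, quasi-likelihood test, two-sided, Benjamini-Hochberg adjustment) compared the groups without a block. The biological coefficient of variation was 10.3%. Replicates of a group differed by more than sampling noise. TPM used the exon lengths of the table. Limits and floors cover counting error only and take each count as independent. Methods were tested on simulated data.

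Named genes were the 10, called genes of each list (at most 4 per direction, largest first), genes sharing exon bases with the 10, and the 3 nearest profiles to the called genes of largest rise and fall. Some items of the lists are not reported here. Other genes are marked as picked after seeing their values, except LRP1, IGF2BP2, IGF2BP3, PLAG1 and LIN28B. Those were named for an adjusted p under 0.05 in their lists, also after it was seen. Markers without a fold change, IGF1 and INS were named for their counts, and HELLPAR for its overlap with IGF1. The tests were repeated with RLE size factors, DESeq2 1.42.0, library totals, no filter, at least 10 counts in every library, a replicate block, counts divided by 2 and each library left out. The 14 ChIP-seq and HiChIP samples were not analysed here.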

Additional observations from a re-analysis of the deposited data

How the results depend on the processing

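IGFBP3, IGFBP1 and IGFBP4 were called in the same direction under all 11 alternatives, with adjusted p up to 6.06e-05, 0.0349 and 7.18e-05. With DESeq2 and without the low-count filter, 3 of the 10 genes were called lower in place of 2, since IGFBP5 was then tested. With the replicate block, 1 was called higher and 2 lower, as without it. Same-numbered libraries deviated together with a correlation of only 0.0203 over genes, so the numbers share no known pairing, and over all genes the replicate block gave 1039 higher and 1568 lower calls against 1046 and 1564. IGFBP7 turned to -0.10 and -0.06 without replicate 1 of the control and of the Erastin group. With 1 library left out its log2 fold change lay between -0.10 and 0.22. Genes of IGF1R signalling called lower numbered 2, and 1 with DESeq2 or without replicate 2 of the control group. The cause was not tested. With DESeq2, RLE size factors, library totals or the replicate block, 4 genes of the pathway lists were called higher in place of 3. Called genes of the pathway lists numbered 3 higher, and between 3 and 5 with 1 library left out, with 5 without replicate 2 of the Erastin group. By CPM, without division by length, IGFBP6 made up 69.7% of the binding protein reads in control cells and 59.9% in Erastin-treated cells, and IGFBP3 9.45% and 23.6%, since IGFBP3 has the longer exons. With library totals the median of all genes was 0.05 in place of -0.0026. With 1 library left out, the lone library of a group was assumed to vary like the other group. Depth limits IGFBP2, IGFBP5 and IGF2.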
